A study of Homo sapiens with 12 samples.

Results

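The genes described here are 9 targets of the hypoxia response outside glycolysis: CA9, VEGFA, ADM, NDRG1, BNIP3, EGLN3, ANKRD37, KDM3A and P4HA1. They were taken by symbol from 3 tables of FPKM, and all 9 were listed in each table, among 16491 genes for HCC70, 18217 for MDA-MB468 treated with XY018 and atorvastatin (ATV), here called the XY018 experiment, and 55744 names for MDA-MB468 treated with GSK805. HCC70 and MDA-MB468 are established lines of triple-negative breast cancer, grown with fetal bovine serum. For MDA-MB468 the labels and the methods name different media. Each line was treated with vehicle, with 1.25 or 2.5 μM of XY018, an antagonist of the nuclear receptor RORγ, with 1.25 μM of the statin ATV, or with both at 1.25 μM each, and in a separate experiment MDA-MB468 received vehicle or the antagonist GSK805 at 2.5 μM. All treatments lasted 24 h, no oxygen treatment is named in the labels, and each of the 12 conditions is a single library.

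When oxygen is plentiful, prolyl hydroxylases of the EGLN family mark the α subunits of hypoxia-inducible factor (HIF) for destruction through the VHL protein. When oxygen is scarce the α subunits persist, pair with ARNT and bind a short DNA core, ACGTG or GCGTG, near their target genes. The targets include secreted vessel factors, pH regulators, a feedback hydroxylase and enzymes of mitochondria, chromatin and collagen, and several of them are also known to respond to other signals, such as amino acid and endoplasmic reticulum stress.

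The HIF core was searched on both strands in the RefSeq promoters of the genes, from 250 bases before to 50 bases after each start. A promoter was at hand for 7 of the 9 genes, so VEGFA and NDRG1 were not searched for any motif. Of the 7, 6 held at least 1 core match, where 48.4% of the 35116 promoters of the same length did. Whether a match goes with the direction of a gene's change was not tested. For each of these 6 genes, 1 match is shown. Each is a stretch of 30 bases, 5′ to 3′ on the strand of the gene, placed on GRCh37 by exact match, with the core or its reverse complement in capitals.
CA9 (chr9:35673895-35673924, plus strand): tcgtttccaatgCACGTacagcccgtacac
ANKRD37 (chr4:186317840-186317869, plus strand): cagtgtttgtgtACGTGcggccgtggcggg
BNIP3 (chr10:133795543-133795572, minus strand): cgcacgcgccgcACGTGccacacgcacccc
P4HA1 (chr10:74856693-74856722, minus strand): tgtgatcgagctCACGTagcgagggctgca
KDM3A (chr2:86668456-86668485, plus strand): ccgggaggctgtGCGTGtcttgtgagagct
ADM (chr11:10326507-10326536, plus strand): gagcaggagcgcGCGTGgctgaggaaagaa
The match in CA9 lay 18 bases before the start, and those shown for ANKRD37 and BNIP3 lay 143 and 133 bases before it. ANKRD37 held 3 matches of the core and BNIP3 held 6, of which 2 in each are the opposite strands of 1 palindromic CACGTG, a sequence that is also the E-box. No match lay in the window of EGLN3. The core of the amino acid response element, TGATGNAAT, was found in none of the 7 genes and in 0.991% of all promoters. A match describes the letters and not binding.

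The files give no read counts. Depth was estimated from the spacing of low FPKM values, at 9010000 to 9890000 fragments per HCC70 library, 18000000 to 20000000 per MDA-MB468 library of the XY018 experiment, and 8220000 and 8460000 in the vehicle and GSK805 libraries. A change is a log2 ratio, treated over vehicle within one table, after 0.1 was added to each FPKM, which understates the change of low genes. A gene was called higher or lower at 1.5-fold or more when either library of the pair reached 1 FPKM. Counting intervals (95%, exact Clopper-Pearson, from estimated fragments without the added 0.1) cover counting error only, and with a single library per condition no p-value is given. Treatments within one experiment share their vehicle library. The members and the gene lists below were chosen with earlier results of these data known. Their counts beside the shares of all genes are therefore a description. Of the 6 basal markers, KRT5, KRT17, EGFR and CDH3 were at 14.1 FPKM or above in every library, KRT6B ranged from 4.09 to 20.5 in MDA-MB468 and from 151 to 292 in HCC70, and KRT14 from 0.45 to 10.6 and from 4.63 to 8.45. ESR1 stayed at or below 0.64 FPKM in HCC70 and at or below 5.67 in MDA-MB468, PGR was listed at 0 in every MDA-MB468 library, and ERBB2 ranged from 25.3 to 57.7 FPKM. Among markers of other cells, where listed, PTPRC of leukocytes reached at most 1.06 FPKM, PECAM1 of endothelium 1.21 and COL1A1 of fibroblasts 17.2.

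The members differed widely in level. In the vehicle library of HCC70 the order from highest to lowest FPKM was VEGFA, NDRG1, KDM3A, P4HA1, EGLN3, CA9, ADM, BNIP3 and ANKRD37. VEGFA and NDRG1, at 51.7 and 44.6 FPKM, rested on 1285 fragments or more in every HCC70 library, while ANKRD37 rested on 5.07 to 11.02 estimated fragments and BNIP3 on 10.4 to 32.1. In the vehicle library of the XY018 experiment in MDA-MB468 the order was VEGFA, NDRG1, BNIP3, EGLN3, KDM3A, ADM, CA9, P4HA1 and ANKRD37. BNIP3 stood at 14.6 FPKM there and at 1.28 FPKM in HCC70. ANKRD37 was under 1 FPKM in both of these vehicle libraries.

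**Figure D1:**
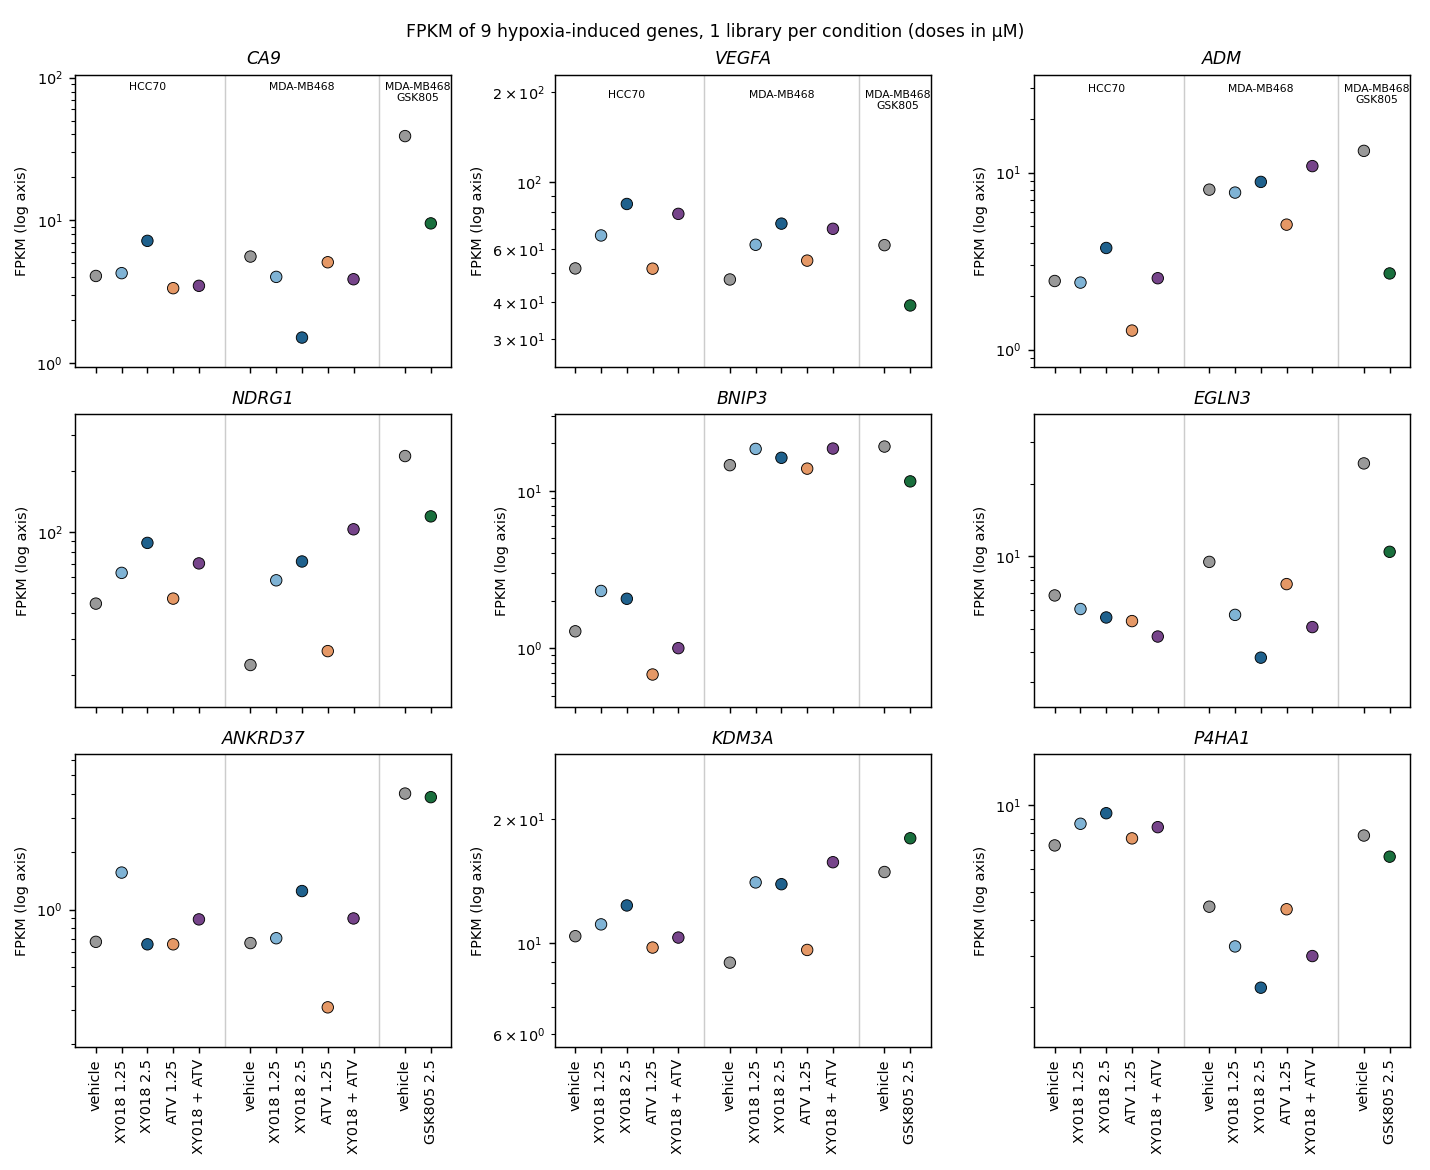
FPKM (log axis) of each gene in the 12 libraries, 1 point per library, with HCC70 on the left, MDA-MB468 of the XY018 experiment in the middle and the GSK805 experiment on the right. NDRG1 and VEGFA lay above vehicle in all 6 libraries with XY018. EGLN3 lay below vehicle in all 6, with 4 counting intervals below 0. With GSK805, 8 of the 9 genes were lower than in its vehicle, and 6 counting intervals lay below 0. The shares of all genes with these patterns were not computed.

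At 2.5 μM, XY018 in HCC70 gave higher values, XY018 in MDA-MB468 gave a split, and GSK805 in MDA-MB468 gave lower values. In HCC70 with XY018, 8 of the 9 genes were compared and 5 rose (CA9, VEGFA, ADM, NDRG1 and BNIP3), where 2.62% of 11721 genes did. The counting intervals of ADM (−0.026 to 1.27) and BNIP3 (−0.20 to 1.57) included 0. None fell, where 3.26% of all genes did. In MDA-MB468 with XY018 all 9 were compared, and 4 rose (VEGFA, NDRG1, ANKRD37 and KDM3A), where 14.1% of 11920 genes did, and 3 fell (CA9, EGLN3 and P4HA1), where 14.5% did. With GSK805, 6 of 9 fell (CA9, VEGFA, ADM, NDRG1, BNIP3 and EGLN3), where 16.6% of 19951 genes did, and none rose, where 17.6% did. Among the 12059 of these names that are also symbols of the other MDA-MB468 table, a background chosen after the values were seen, 12.6% fell and 13.5% rose. The median log2 ratio of the members compared was 0.62 for XY018 in HCC70, 0.15 for XY018 in MDA-MB468 and −0.73 for GSK805, beside medians over all genes compared of −0.024, 0.0020 and 0.0075. ANKRD37 entered the comparison of MDA-MB468 with XY018 at 2.5 μM through its treated library alone, so it could be there only as a higher value. Its counting interval (−0.30 to 2.20) included 0.

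The other treatments moved fewer members past 1.5-fold. In HCC70, XY018 at 1.25 μM gave 2 higher (BNIP3 and ANKRD37, where 1.93% of all genes were higher) and 0 lower of 9 (against 2.64%), and ANKRD37 reached 1 FPKM only in the treated library. The counting intervals of BNIP3 (−0.030 to 1.73) and ANKRD37 (−0.42 to 3.09) included 0. ATV there gave 2 lower of 8 (ADM and BNIP3, against 1.32%) and 0 higher (against 2.22%). BNIP3 reached 1 FPKM only in the vehicle library of that pair, so it could be counted only as lower. Its counting interval (−2.25 to 0.20) included 0. Both compounds gave 2 higher of 8 in HCC70 (VEGFA and NDRG1, against 4.38%) and 0 lower (against 2.93%). XY018 at 1.25 μM in MDA-MB468 gave 2 higher (NDRG1 and KDM3A, against 9.73%) and 1 lower of 8 (EGLN3, against 8.37%), and both compounds gave the same 2 higher (against 13.1%) and EGLN3 lower (against 12.2%). With ATV alone in MDA-MB468, ADM was lower, 1 of 8 against 0.803%, and 0 were higher against 1.37%. The medians in these 6 comparisons ran from −0.18 to 0.39.

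**Figure D2:**
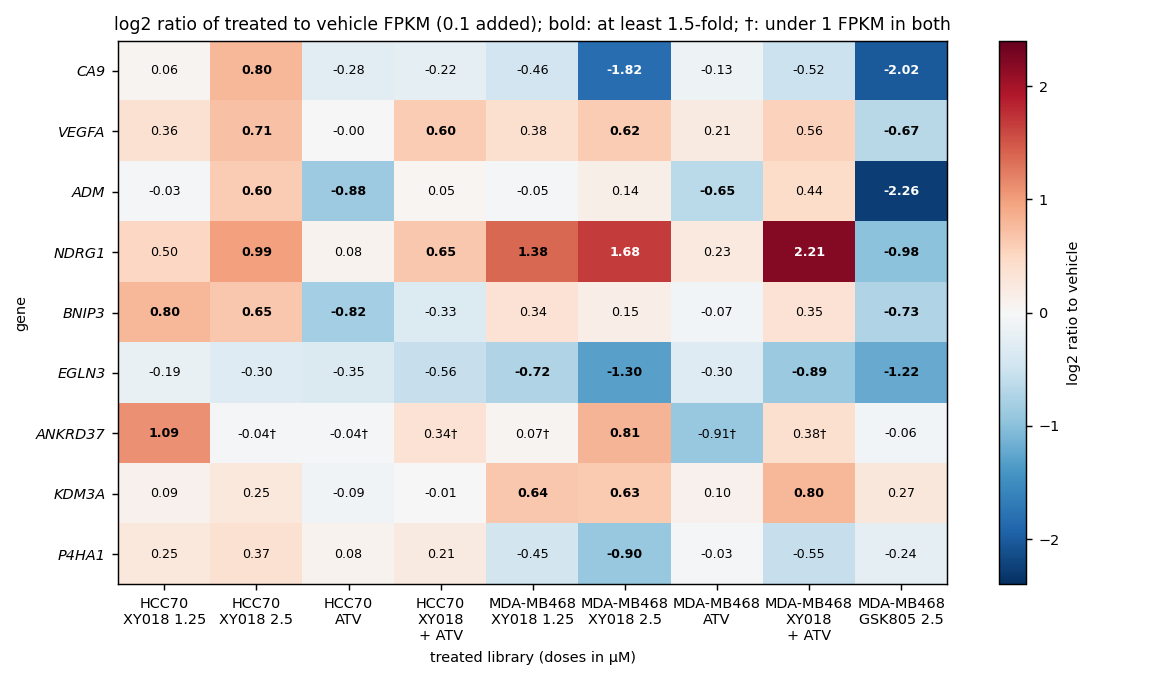
Log2 ratio of treated to vehicle FPKM (0.1 added) for the 9 genes (rows) in the 9 treated libraries (columns), with bold values at 1.5-fold or more. The NDRG1 row is above 0 in all libraries but GSK805, the EGLN3 row is below 0 in all 9, and the CA9 row changes sign between HCC70 and MDA-MB468 at 2.5 μM XY018. The shares of all genes with these patterns were not computed.

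EGLN3 encodes a HIF prolyl hydroxylase that is itself induced by HIF and feeds back on it. Its gene (Entrez 112399) lies on the minus strand of chromosome 14 of GRCh37, with a GENCODE extent from 34393433 to 34931980. The RefSeq promoter of EGLN3 searched above runs from 34420231 to 34420530, well inside that extent. In HCC70, EGLN3 was at 6.87 FPKM in vehicle, 6.03 and 5.56 with XY018 at 1.25 and 2.5 μM, 5.37 with ATV and 4.63 with both. In MDA-MB468 the values were 9.48 in vehicle, 5.70 and 3.78 with XY018, 7.66 with ATV and 5.07 with both. The GSK805 experiment held 24.4 FPKM in vehicle and 10.4 with GSK805. Every treated library was thus below its own vehicle, and the share of all genes with that pattern was not computed. In HCC70, 1 of the 3 counting intervals with XY018 lay below 0. Those at 1.25 μM (−0.51 to 0.14) and 2.5 μM (−0.63 to 0.015) included 0. EGLN3 fell past 1.5-fold in 4 of the 9 comparisons, by log2 ratios of −0.72 and −1.30 at the lower and higher dose of XY018 and −0.89 with both compounds in MDA-MB468, and −1.22 with GSK805. The counting intervals of XY018 at 2.5 μM (−1.58 to −1.08) and of GSK805 (−1.46 to −0.996) overlapped. In HCC70 the lowest log2 ratio, with both compounds, was −0.56 (−0.92 to −0.23), short of 1.5-fold.

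CA9 encodes carbonic anhydrase IX, a membrane enzyme that regulates pH outside the cell and is widely used as a marker of hypoxia. The gene (Entrez 768) lies on chromosome 9 from 35673925 to 35681156. Its FPKM in HCC70 was 4.08 in vehicle, 4.27 and 7.19 with XY018 at 1.25 and 2.5 μM, 3.35 with ATV and 3.48 with both. In MDA-MB468 it was 5.58 in vehicle, 4.02 and 1.51 with XY018, 5.09 with ATV and 3.87 with both, and in the GSK805 experiment it went from 39.0 to 9.53. At 2.5 μM XY018 the gene rose in HCC70 and fell in MDA-MB468. The log2 ratios were 0.80 (0.35 to 1.30) in HCC70, −1.82 (−2.41 to −1.38) in MDA-MB468 and −2.02 (−2.34 to −1.73) with GSK805. Non-canonical transcripts of ARHGEF39 on the opposite strand cover 571 of the 1546 exon bases of CA9, and the counting is not stated to use strand. ARHGEF39 had log2 ratios of 0.030, −1.51 and −0.87 in the same comparisons, and its part in the CA9 values was not tested.

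VEGFA, the main growth factor of blood vessels, lies on chromosome 6 from 43737921 to 43754224 (Entrez 7422). In HCC70 it stood at 51.7 FPKM in vehicle, 66.6 and 84.8 with XY018 at 1.25 and 2.5 μM, 51.6 with ATV and 78.6 with both. In MDA-MB468 it stood at 47.5, 62.0, 72.9, 54.9 and 70.1 FPKM in the same order. All 6 libraries with XY018 were above their vehicle, with counting intervals above 0, by log2 ratios of 0.36 to 0.71 in HCC70 and 0.38 to 0.62 in MDA-MB468. The share of all genes above vehicle in all 6, as VEGFA and NDRG1 were, was not computed. With GSK805, VEGFA fell from 61.8 to 38.9 FPKM, a log2 ratio of −0.67 (−0.78 to −0.56). ATV alone gave log2 ratios of −0.0028 in HCC70 and 0.21 in MDA-MB468.

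ADM encodes adrenomedullin, a secreted peptide that dilates vessels, on chromosome 11 from 10326620 to 10328944 (Entrez 133). Its FPKM in HCC70 was 2.44 in vehicle, 2.39 and 3.75 with XY018 at 1.25 and 2.5 μM, 1.28 with ATV and 2.53 with both. In MDA-MB468 it was 8.01, 7.71, 8.86, 5.08 and 10.9 in the same order. ADM was the one member past 1.5-fold with ATV alone in both lines, lower by log2 ratios of −0.88 (−1.82 to −0.09) in HCC70, on 18.9 estimated fragments in the ATV library, and −0.65 (−0.96 to −0.35) in MDA-MB468. Adding XY018 to ATV put the gene above its value with ATV alone by 0.93 (0.14 to 1.86) and 1.08 (0.81 to 1.39). With GSK805, ADM went from 13.3 to 2.69 FPKM, the largest fall of the 9 genes in that comparison, at −2.26 (−2.93 to −1.74). The rise called with XY018 at 2.5 μM in HCC70, 0.60, has a counting interval that includes 0 (−0.026 to 1.27).

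NDRG1 encodes a cytoplasmic protein linked to differentiation and metastasis suppression that is induced by hypoxia and by loss of iron. The gene (Entrez 10397) lies on the minus strand of chromosome 8 from 134249418 to 134314265. It had the highest ratio of any member, in MDA-MB468 with both compounds. Its FPKM there was 22.3 in vehicle, 58.0 and 71.8 with XY018 at 1.25 and 2.5 μM, 26.1 with ATV and 103 with both. In HCC70 the values were 44.6, 63.1, 88.5, 47.2 and 70.2 in the same order. The log2 ratios with XY018 were 1.38, 1.68 and, with ATV added, 2.21 in MDA-MB468, and 0.50, 0.99 and 0.65 in HCC70, and all 6 counting intervals lay above 0. GSK805 went with the opposite direction, from 236 to 119 FPKM, at −0.98 (−1.05 to −0.92). The vehicle of the GSK805 experiment thus stood above each of the other 11 libraries as listed, in tables normalized separately. An annotated gene without a symbol on the same strand has exons that overlap those of NDRG1. Its part in the NDRG1 values was not tested.

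BNIP3, a protein of the outer mitochondrial membrane that promotes mitophagy and cell death, lies on the minus strand of chromosome 10 from 133781188 to 133795471 (Entrez 664). The annotation names 44 BNIP3 pseudogenes, which can share its reads, so its values are less certain. In HCC70 it was at 1.28 FPKM in vehicle, 2.31 and 2.06 with XY018, 0.68 with ATV and 1.00 with both, and the counting intervals of all 4 ratios to vehicle included 0. In MDA-MB468 it was at 14.6 in vehicle, 18.5 and 16.2 with XY018, 13.84 with ATV and 18.6 with both, with no change of 1.5-fold. It fell with GSK805, from 19.1 to 11.5 FPKM, by a log2 ratio of −0.73 (−1.06 to −0.42).

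KDM3A removes methyl groups from lysine 9 of histone H3. The gene (Entrez 55818) lies on chromosome 2 from 86667770 to 86719839. Its FPKM in MDA-MB468 was 8.95 in vehicle, 14.0 and 13.9 with XY018 at 1.25 and 2.5 μM, 9.61 with ATV and 15.7 with both. It rose in the 3 libraries with XY018 there, by log2 ratios of 0.64, 0.63 and 0.80, all with counting intervals above 0. In HCC70 its FPKM ran from 9.74 with ATV to 12.3 with XY018 at 2.5 μM, around 10.4 in vehicle, with no change of 1.5-fold. KDM3A was the one member above vehicle with GSK805, at 17.97 against 14.9 FPKM, a log2 ratio of 0.27 (0.11 to 0.44), short of 1.5-fold.

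P4HA1 encodes the catalytic subunit of collagen prolyl 4-hydroxylase and lies on the minus strand of chromosome 10 from 74766975 to 74856732 (Entrez 5033). In HCC70 it was at 7.26 FPKM in vehicle, 8.63 and 9.39 with XY018 at 1.25 and 2.5 μM, 7.68 with ATV and 8.40 with both. In MDA-MB468 it was at 4.45, 3.24, 2.33, 4.36 and 3.0 in the same order. The 3 XY018 libraries of HCC70 lay above vehicle, and those of MDA-MB468 lay below it, with counting intervals that exclude 0 in 1 and 3 of the 3 libraries. The fall at 2.5 μM in MDA-MB468, −0.90 (−1.27 to −0.61), was the one change of 1.5-fold, and GSK805 gave −0.24 (−0.58 to 0.08), from 7.86 to 6.64 FPKM.

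ANKRD37, an ankyrin repeat protein known as a HIF target, lies on chromosome 4 from 186317175 to 186321782 (Entrez 353322). It was under 1 FPKM in 8 of the 10 libraries of HCC70 and of the XY018 experiment in MDA-MB468. The exceptions were 1.56 with XY018 at 1.25 μM in HCC70 and 1.25 with XY018 at 2.5 μM in MDA-MB468, and the gene passed the filter through these libraries alone. The counting intervals of both ratios included 0. In the GSK805 experiment it was at 4.02 FPKM in vehicle and 3.85 with GSK805. Exons of UFSP2 on the opposite strand cover 429 of its 784 exon bases, and UFSP2 had log2 ratios to vehicle of −0.19 and 0.77 in the libraries named.

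Between 1.25 and 2.5 μM XY018, CA9 went in opposite directions in the cell lines, while VEGFA and NDRG1 went up in both. CA9 was higher at the larger dose by 0.74 (0.29 to 1.25) in HCC70 and lower by a log2 ratio of −1.36 (−1.96 to −0.88) in MDA-MB468. VEGFA and NDRG1 were higher at 2.5 μM in both lines, by 0.35 and 0.49 in HCC70 and by 0.23 and 0.31 in MDA-MB468, each with a counting interval above 0 and each short of 1.5-fold. EGLN3 and P4HA1 were lower at 2.5 μM in MDA-MB468, by −0.58 (−0.87 to −0.32) and −0.46 (−0.84 to −0.13), also short of 1.5-fold. In HCC70, CA9 and ADM were higher by 1.5-fold and ANKRD37 lower, where 1.17% and 1.36% of 11684 genes were. In MDA-MB468, ANKRD37 was higher and CA9 lower, where 1.03% and 1.73% of 11775 genes were. ANKRD37 reached 1 FPKM only in the library where it was high in each of these steps, so it could be counted in that direction alone, and its counting intervals (−3.14 to 0.38 in HCC70 and −0.34 to 2.16 in MDA-MB468) include 0.

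Set against XY018 alone at 1.25 μM, the addition of ATV raised NDRG1 in MDA-MB468 from 58.0 to 103 FPKM, a log2 ratio of 0.83 (0.77 to 0.89), where 2.1% of 11793 genes were higher and 1.76% lower. No other member passed 1.5-fold in that step, and ADM came closest at 0.49 (0.24 to 0.76). In HCC70 the same step left NDRG1 at 0.15 (0.062 to 0.25), and BNIP3 and ANKRD37 were lower past 1.5-fold, where 1.96% of 11775 genes were (ANKRD37 reached 1 FPKM only with XY018 alone), and none was higher, where 3.75% were. Set against ATV alone, XY018 with ATV gave NDRG1 log2 ratios of 1.98 (1.91 to 2.07) in MDA-MB468 and 0.57 (0.48 to 0.67) in HCC70. In this step VEGFA and ADM were higher past 1.5-fold and none lower in HCC70, where 2.73% and 2.54% of 11804 genes were. In MDA-MB468, ADM, NDRG1 and KDM3A were higher and EGLN3 lower, where 11.7% and 11.1% of 11887 genes were.

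**Figure D3:**
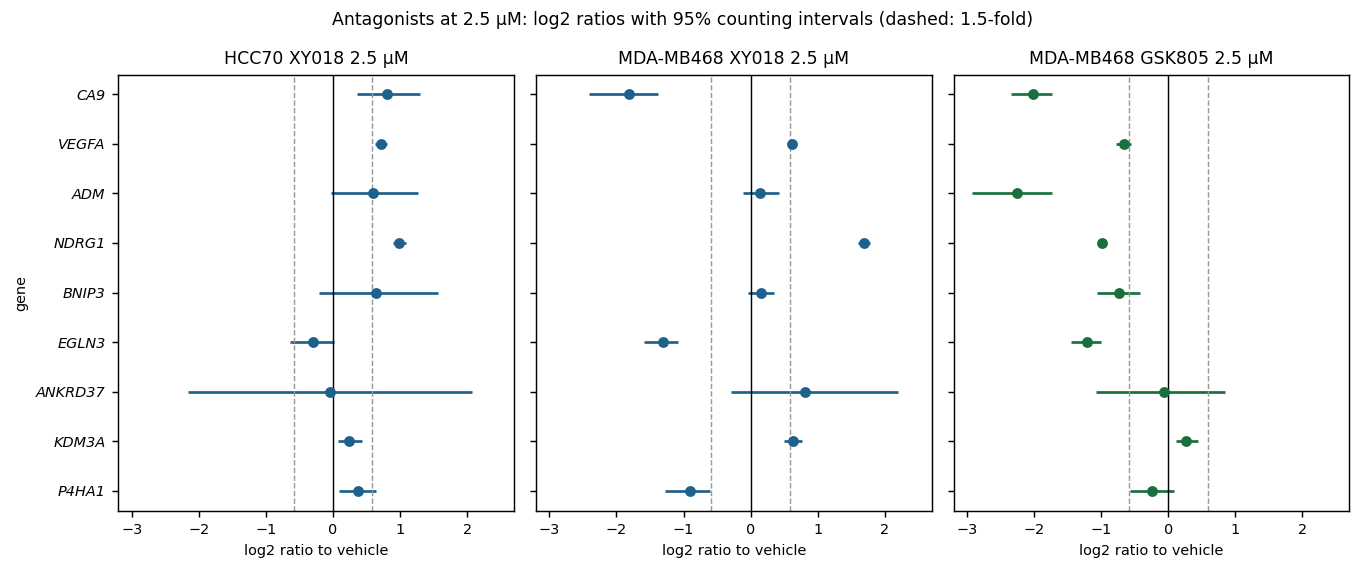
Log2 ratio to vehicle (points) with 95% counting intervals (lines) for the 9 genes at 2.5 μM of XY018 in HCC70, XY018 in MDA-MB468 and GSK805 in MDA-MB468, with dashed lines at 1.5-fold. CA9 and EGLN3 lie left of the dashed line with both antagonists in MDA-MB468, and NDRG1 and VEGFA lie on opposite sides.

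The antagonists can be set side by side in MDA-MB468 at 2.5 μM and 24 h, each against its own vehicle. CA9 and EGLN3 fell with both. VEGFA and NDRG1 rose with XY018 and fell with GSK805, and no member rose with both. The shares of all genes with each of these joint patterns were not computed. The difference between the antagonists cannot be told apart from the difference between the experiments, which had separate vehicles, depth and annotation. The vehicle libraries themselves differed at these genes. NDRG1 stood at 22.3 FPKM in the vehicle of the XY018 experiment and 236 in that of the GSK805 experiment, CA9 at 5.58 and 39.0, ANKRD37 at 0.67 and 4.02, and EGLN3 at 9.48 and 24.4. The log2 ratios between these vehicles were 3.40, 2.78, 2.42 and 1.35, where the median over 11952 shared genes was 0.56 and the central 90% ran from −0.72 to 2.32, so NDRG1, CA9 and ANKRD37 lay beyond that range. The other 5 members, from 0.38 for VEGFA to 0.81 for P4HA1, lay near the median. As the tables were normalized separately, these ratios mix scaling and annotation with any difference between the cultures.

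**Figure D4:**
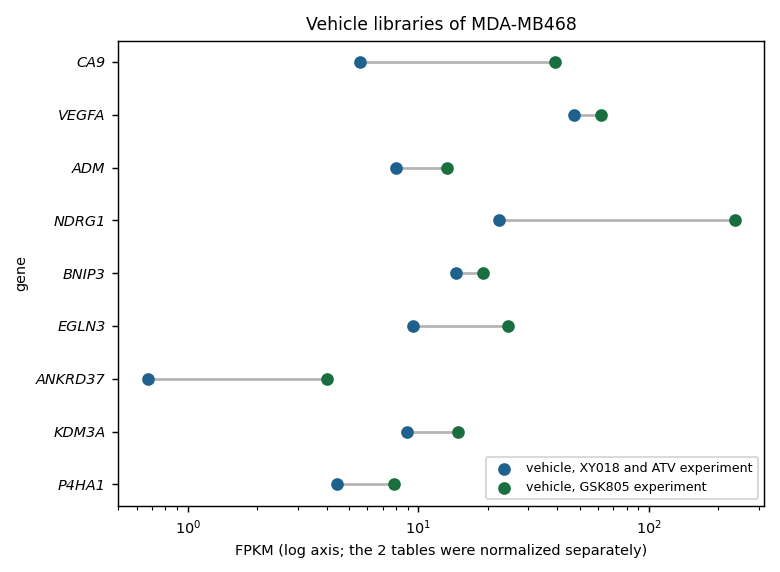
FPKM (log axis) of the 9 genes in the vehicle libraries of MDA-MB468 of the XY018 experiment and of the GSK805 experiment, 1 library each, joined by a line. All 9 were higher in the GSK805 experiment, and NDRG1, CA9 and ANKRD37 were farthest apart, in tables that were normalized separately.

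The genes of the oxygen-sensing machinery were compared in the same way. Of 14 genes, 12 reached 1 FPKM at 2.5 μM in each comparison. The medians were 0.0081 for XY018 in HCC70, −0.014 for XY018 in MDA-MB468 and −0.15 for GSK805. In MDA-MB468 1 gene was lower with each antagonist, 8.33% of those compared, against 14.5% of all genes with XY018 and 16.6% with GSK805. None was higher there, against 14.1% and 17.6%. In HCC70 none passed 1.5-fold, where 2.62% of all genes rose and 3.26% fell. HIF1A, the main α subunit, was at 163 FPKM in HCC70 vehicle and 155 with XY018 at 2.5 μM, at 49.5 and 48.4 in MDA-MB468, and at 95.9 and 109 in the GSK805 experiment. EPAS1, the second α subunit, had log2 ratios of 0.047, 0.13 and −0.24, and ARNT, their partner, 0.20, 0.37 and 0.40. HIF abundance is set largely by protein stability, which FPKM does not measure.

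CITED2, which competes with HIF for its coactivator, was the one gene of this list to pass 1.5-fold at 2.5 μM. It fell in MDA-MB468 from 94.4 to 51.7 FPKM with XY018, at −0.87 (−0.94 to −0.80), and from 88.9 to 52.9 with GSK805, at −0.75 (−0.86 to −0.63). In HCC70 it was at 18.3 in vehicle and 15.97 with XY018. The hydroxylases EGLN1 and EGLN2 and the asparaginyl hydroxylase HIF1AN ranged from −0.41, for EGLN2 with GSK805, to 0.38, for EGLN2 with XY018 in MDA-MB468. VHL and the other parts of its ubiquitin ligase, CUL2, RBX1, ELOB and ELOC, ranged from −0.54, for RBX1 with GSK805, to 0.29, for VHL with GSK805. HIF3A and ARNT2 were under 1 FPKM in all of these libraries.

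A further 35 hypoxia-induced genes outside glycolysis were read against the same shares of all genes. In HCC70 with XY018 at 2.5 μM, 30 were compared and 7 rose (23.3%, against 2.62% of all genes) and 0 fell (against 3.26%), with a median of 0.088. ANGPTL4, a secreted inhibitor of lipoprotein lipase, rose from 4.38 to 40.8 FPKM, at 3.19 (2.89 to 3.58), and DDIT4, an inhibitor of mTORC1, STC2, a secreted glycoprotein, and MAFF, a small MAF factor, by 1.00, 0.89 and 0.86. In MDA-MB468 with XY018, 29 were compared and 9 rose (31.0%, against 14.1%) and 6 fell (20.7%, against 14.5%), with a median of 0.19. STC1, a secreted glycoprotein, and EDN1, which encodes the vasoconstrictor endothelin 1, fell by log2 ratios of −1.92 and −1.35, MAFF rose by 1.20, and ANGPTL4 went from 0.17 to 1.05 FPKM. ANGPTL4 reached 1 FPKM only in the treated library there, so it could be counted only as higher. With GSK805, 32 were compared and 2 rose (6.25%, against 17.6%) and 9 fell (28.1%, against 16.6%), with a median of −0.24. ANGPTL4, TFRC (the transferrin receptor), LOXL2 (a lysyl oxidase of the matrix) and EDN1 fell by −1.54, −1.34, −1.31 and −1.23.

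The enzymes of glycolysis, the other main branch of the hypoxia response, were mostly lower with GSK805. Of 22 genes 21 were compared, and 12 fell (57.1%, against 16.6% of all genes) and 1 rose (4.76%, against 17.6%), with a median of −0.66, next to −0.73 for the 9 members. The glucose transporter SLC2A3, the lactate exporter SLC16A3, ENO2 and PGAM1 had log2 ratios of −1.85, −1.26, −1.04 and −1.03. SLC2A3 reached 1 FPKM only in the vehicle library of that pair, so it could be counted only as lower. With XY018 in MDA-MB468, 4 of 20 fell and 2 rose, shares of 20.0% and 10.0% that stand near the 14.5% and 14.1% of all genes (median −0.30). LDHA, ENO1 and PKM, which have pseudogenes that can share their reads, were lower by −1.21, −0.90 and −0.86, while ENO2 rose by 0.78. In HCC70 with XY018, 3 of 20 rose, against 2.62% of all genes, and 0 fell (median 0.011). The 3 were PFKFB3, a regulator of glycolytic flux, the glucose transporter SLC2A1, and ENO2, at 0.86, 0.80 and 0.74, and PFKP was at 0.51.

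Genes of the integrated stress response, which shares targets with the hypoxia response, were compared at 2.5 μM in the same way. Of 14 genes, 5 rose (35.7%, against 2.62% of all genes) and 0 fell in HCC70 with XY018 (median 0.48). In MDA-MB468, 6 rose (42.9%, against 14.1%) and 1 fell (7.14%, against 14.5%) with XY018 (median 0.22), and 4 rose (28.6%, against 17.6%) and 0 fell (against 16.6%) with GSK805 (median 0.35). In HCC70 the largest ratios were those of SESN2, CHAC1, DDIT3 and ASNS, at 0.99, 0.97, 0.88 and 0.82. In MDA-MB468 with XY018 they were those of ATF3, PPP1R15A, DDIT3 and HERPUD1, at 2.60, 2.52, 2.30 and 2.08, and with GSK805 those of DDIT3, SLC7A11, HERPUD1 and CEBPB, at 1.62, 1.23, 0.80 and 0.62. With GSK805 the median of the stress list was 0.35 and that of the 9 hypoxia-induced genes −0.73, beside 0.0075 for all genes compared. With XY018, VEGFA and NDRG1 rose in the same libraries as the stress genes named. Of the 14 stress genes, 1 lay below vehicle in HCC70 with XY018 and 6 did in MDA-MB468, the lowest at −1.03. The part of the stress response in the values of VEGFA and NDRG1 was not tested.

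**Figure D5:**
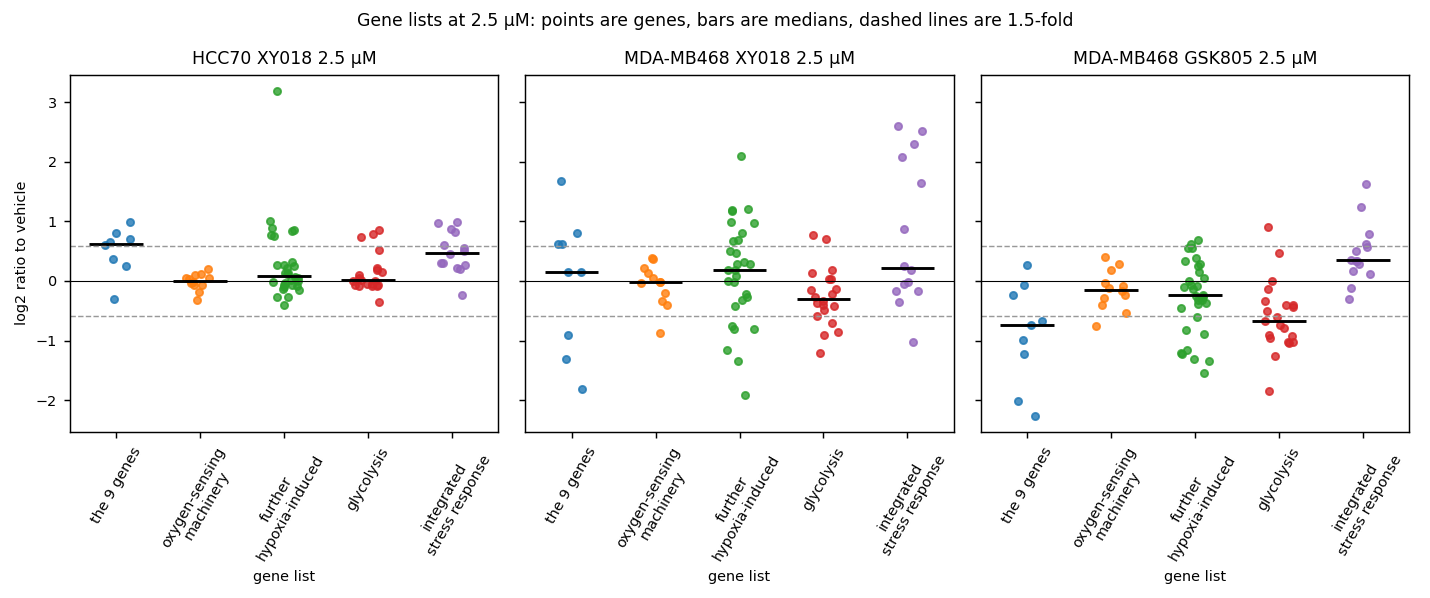
Log2 ratio to vehicle of the genes of 5 lists (points) with the median of each list (bars) at 2.5 μM of XY018 in HCC70, XY018 in MDA-MB468 and GSK805 in MDA-MB468, with dashed lines at 1.5-fold. With GSK805 the bars of the 9 genes and of glycolysis lie below the lower dashed line while that of the stress response lies above 0.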

How the data were processed

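RNA-seq of 12 libraries was analysed, with 1 library per condition and samples grouped by their titles. Per the submitters' notes and the methods, BWA and Bowtie served for alignment to GRCh37 and Cufflinks for quantification, with versions not given in the sources used here. The authors deposited FPKM in 3 tables, normalized separately. The members and gene lists were chosen with earlier results of these data known. Log2 ratios were computed with 0.1 added to both FPKM values. Of names with more than one entry in the GSK805 table, the entry with the higher mean was kept. Depth was estimated from the spacing of values between 0.03 and 0.6 FPKM (in tables that list transcripts, of genes with a single one), with exon lengths of GENCODE release 44 canonical transcripts, and is approximate. The ratios, intervals and depths were tested on simulated data. Named genes are all members, the whole oxygen-sensing list, and of each other list up to 4 genes with the largest ratios at 2.5 μM. Overlapping genes were named after the values were seen. Genes without a symbol also overlap exons of VEGFA and P4HA1 on the opposite strand, and their part was not tested. Alternatives were pseudocounts of 1 and 0.01, no filter or one at 5 FPKM, rescaling, a 2-fold threshold and summed entries. Promoter sequences are from RefSeq (GRCh38.p14 table), placed on GRCh37, while gene extents are from GENCODE release 44 mapped to GRCh37. Scripts ran in Python 3.11.15 with scipy 1.17.1, pandas 2.3.3, numpy 2.4.6 and, for plots, matplotlib 3.10.9.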

Additional observations from a re-analysis of the deposited data

Results flagged for a closer look

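P4HA1 lay above vehicle in HCC70 and below it in MDA-MB468 in every library with XY018. The log2 ratios to vehicle were 0.25, 0.37 and 0.21 in HCC70 at the lower dose, the higher dose and with both compounds, and −0.45, −0.90 and −0.55 in MDA-MB468. Of these, 1 counting interval in HCC70 and 3 in MDA-MB468 exclude 0. The 3 libraries of a line share their vehicle, and the difference between the lines was not tested. The share of all genes with the same pattern was not computed.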

How the results depend on the processing

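The median log2 ratio of the members kept its sign in all 9 comparisons with vehicle under every alternative run, and each member's ratio stayed within its counting interval. At 2.5 μM XY018 in HCC70 the median ranged from 0.45 to 0.65. With ATV in HCC70 the median was −0.18, and −0.0028 with a filter at 5 FPKM. Counts of members past the fold depended more on the settings, and the shares of all genes were not computed at the alternative settings. At 2-fold, the counts of higher genes were 1, 0 and 0 in HCC70 at the lower and higher dose of XY018 and with both compounds, and 1 in each of the 3 libraries with XY018 in MDA-MB468. The gene counted in HCC70 was ANKRD37, which reached 1 FPKM only in the treated library and could be counted only as higher. Lower genes at 2-fold numbered 0 with ATV in each line, 0 in MDA-MB468 with XY018 at 1.25 μM and with ATV added, and 3 with GSK805. A pseudocount of 1 gave 1 and 3 higher genes in HCC70 with XY018 at 1.25 and 2.5 μM, 2 in MDA-MB468 at 2.5 μM, and 1 and 0 lower genes with ATV in HCC70 and MDA-MB468. A filter at 5 FPKM gave 0 and 3 higher genes in HCC70 with XY018 at 1.25 and 2.5 μM and 0 lower genes with ATV in HCC70. Without a filter, 2 genes were lower with ATV in MDA-MB468. No paired analysis was possible because each condition has 1 library. The spread between cultures cannot be measured here, and for ANKRD37, BNIP3 and ADM in HCC70 depth limits the precision.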

Other observations

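Over 7123 genes that are in all 3 tables and reach 5 FPKM in each vehicle, the 5 whose 9 log2 ratios were most like the 9 medians of the members were FERMT2, ARNTL, PROSER2, NUP98 and MGLL, with Pearson correlations of 0.94, 0.93, 0.92, 0.91 and 0.91. The 9 points share vehicle libraries, so this is a description. ARNTL, a clock factor, had log2 ratios of 0.44 in HCC70 and 0.31 in MDA-MB468 with XY018 at 2.5 μM and −0.60 with GSK805, and FERMT2, an integrin adaptor, had 0.42, −0.070 and −0.69. MGLL, which breaks down monoacylglycerols, had 0.89, 0.69 and −0.44.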
